A study of Mus musculus with 4 samples.

Results

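The 10 genes described here encode tumour necrosis factor, its 2 receptors, the protease that releases it from the cell surface, and adaptors and ubiquitin ligases that carry its signal: Tnf, Tnfrsf1a, Tnfrsf1b, Adam17, Traf1, Traf2, Traf3, Traf6, Birc2 and Birc3. They were picked by symbol for their place in the pathway, with earlier results of these data known, and all 10 were found once in each deposited table, among 22554 genes common to both. RAW264.7 cells cocultured with CT26 cells (2 libraries) were set against mock RAW264.7 cells kept without tumour cells (2 libraries). RAW264.7 is a macrophage line from a BALB/c mouse, with no genetic change named in the labels beyond the line itself, and CT26 is a colon carcinoma line of the same strain. Per the labels, the macrophages were grown in DMEM and the tumour cells in RPMI1640; the sources used here do not give the length of the coculture, its medium or any step that parted the lines. All 4 libraries are labelled as this 1 immortal line, so they stand for RAW264.7 and not for tissue macrophages. The comparison asks how macrophage messenger RNA differs after growth beside tumour cells.

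Tumour necrosis factor (TNF) is made as a membrane protein, mostly by macrophages, and is cut free by the ADAM17 protease. TNFR1, the product of Tnfrsf1a, carries a death domain and can start either survival or death signalling, while TNFR2, the product of Tnfrsf1b, has no death domain and binds TRAF adaptors directly. TRAF2 brings the ubiquitin ligases cIAP1 (Birc2) and cIAP2 (Birc3) to the receptors, and the ubiquitin chains they build activate NF-kappaB, which in turn drives Tnf, Traf1 and Birc3 among many other genes. TRAF3 together with TRAF2 and the cIAPs holds down the alternative NF-kappaB route, and TRAF6 serves Toll-like and interleukin-1 receptors.

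The bases before the transcription start are shown for 5 members. Tnf, Traf1 and Birc3 were the members at least 1.5-fold higher in coculture in both pairs. Traf3 and Birc2 hold the only member matches to the kappaB motif and the cyclic AMP response element, respectively. Their levels in the groups overlapped, as did those of Tnfrsf1b, Traf2 and Traf6, which are not shown. Each run is the 250 bases before the start in RefSeq on GRCm38.p6, written in the direction of the gene. Capitals mark matches to the kappaB motif (by name), the TATA box TATAAA, the cyclic AMP response element TGACGTCA or the AP-1 motif TGANTCA, all searched on both strands. The matches do not overlap one another in these runs.

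Tnf (chr17:35202008-35202257, minus strand): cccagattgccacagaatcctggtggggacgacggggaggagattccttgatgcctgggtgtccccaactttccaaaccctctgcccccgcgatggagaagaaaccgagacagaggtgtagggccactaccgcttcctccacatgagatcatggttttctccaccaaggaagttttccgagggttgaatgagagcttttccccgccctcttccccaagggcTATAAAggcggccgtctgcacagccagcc
Traf1 (chr2:34961773-34962022, minus strand): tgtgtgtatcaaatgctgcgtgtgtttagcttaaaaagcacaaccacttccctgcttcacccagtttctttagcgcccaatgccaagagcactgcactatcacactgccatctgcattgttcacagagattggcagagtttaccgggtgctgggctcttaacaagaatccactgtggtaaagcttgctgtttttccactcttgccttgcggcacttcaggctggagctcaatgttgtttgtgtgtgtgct
Birc3 (chr9:7873171-7873420, minus strand): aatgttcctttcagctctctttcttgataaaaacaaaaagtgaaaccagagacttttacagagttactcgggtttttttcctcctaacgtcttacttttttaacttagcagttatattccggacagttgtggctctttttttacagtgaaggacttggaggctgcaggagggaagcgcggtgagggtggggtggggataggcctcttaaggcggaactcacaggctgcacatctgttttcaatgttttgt
Traf3 (chr12:111166120-111166369, plus strand): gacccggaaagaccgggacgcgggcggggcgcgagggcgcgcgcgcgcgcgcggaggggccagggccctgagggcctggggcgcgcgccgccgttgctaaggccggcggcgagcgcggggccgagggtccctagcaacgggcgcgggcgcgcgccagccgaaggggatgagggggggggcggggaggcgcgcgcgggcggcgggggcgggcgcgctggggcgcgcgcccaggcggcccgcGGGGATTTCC
Birc2, the outer of 2 starts (chr9:7837058-7837307, minus strand): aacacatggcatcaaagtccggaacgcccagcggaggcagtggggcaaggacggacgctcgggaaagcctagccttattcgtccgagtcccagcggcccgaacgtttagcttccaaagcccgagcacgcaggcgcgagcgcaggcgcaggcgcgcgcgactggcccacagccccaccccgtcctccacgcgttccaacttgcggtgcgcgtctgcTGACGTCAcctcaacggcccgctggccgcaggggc

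In these windows Tnf held a TATA box 29 to 24 bases before the start, which 12.4% of 32841 promoters of the same length held. The kappaB motif was matched by 7.25% of all promoters and by 1 of the 10 members, Traf3, in the last 10 bases before its start. The cyclic AMP response element was matched by 1.55% of promoters and by 1 member, Birc2, 35 to 28 bases before its outer start. No member matched the AP-1 motif in this window, against 6.75% of promoters. The GC box GGGCGG, not in capitals here, was matched by 32.7% of promoters and by 6 of the 10 members, which have 11 windows. In Birc2 it lay only before the inner start, which is not shown. The windows differed in CpG dinucleotides: Traf1 had 4, Birc3 6, Tnf 10, Traf3 49 and the outer start of Birc2 31. The median over all promoters was 6. The windows not shown held 9 (Tnfrsf1a), 12 (Tnfrsf1b), 13 (Traf6), 19 (Traf2), 19 (inner start of Birc2) and 23 (Adam17). The shown windows of Traf3 and Birc2 thus had the highest counts of all member windows. A match or its absence describes these letters only, and sites farther away were not searched.

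The unit, FPKM (fragments per kilobase of gene, relative to library size), is meant to correct for gene length. The lengths used were not given in the sources used here. Levels and ratios set between genes below rest on those lengths, and their order could differ with others. Pair 1 (replicate 1 of each group) and pair 2 (replicate 2) were deposited in separate tables, and levels set across pairs also cross those tables. The steps in low FPKM values put the depth at about 16200000 and 12200000 reads in coculture 1 and 2, and at about 15400000 and 15800000 in mock 1 and 2. With GENCODE M21 exon lengths, the reads behind a member were estimated at 112 (Tnfrsf1b in mock 1, exact 95% Poisson interval 92.2 to 135, counting error only) to 20071 (Tnf in coculture 1). Of 12 macrophage markers, 11 reached 1 FPKM in every library, and Mertk did not exceed 0.028 FPKM. The 16 epithelial and mesenchymal markers that could come from CT26 cells summed to 3.14 and 14.9 FPKM in coculture and to 3.05 and 1.72 FPKM in mock. Pdpn, which activated macrophages can also express, alone gave 13.5 FPKM of the sum in coculture 2, and Epcam, Krt18, Col3a1 and Postn were listed at 0 in all 4 libraries.

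In coculture, the ligand and 2 signalling genes downstream of it stood at least 1.5-fold above mock in both pairs. Tnf was 17.2 and 8.76 times its mock level in the 2 pairs, Traf1 31.0 and 5.65 times, and Birc3 2.73 and 1.81 times. The receptor gene Tnfrsf1a, the sheddase gene Adam17, and Traf2, Traf3, Traf6 and Birc2 stood within 1.62-fold of mock in either direction. Tnfrsf1b, the other receptor gene, stood at 3.61 and 1.44 times its mock level in pairs 1 and 2. No member passed the test over all genes (limma with the pair as a block, Benjamini-Hochberg adjusted p under 0.05), for which the share over all 10202 tested genes was 0.127% higher and 0% lower. Before adjustment, 4 of the 10 members had p under 0.05 and were higher (Tnf, Birc3, Traf1 and Tnfrsf1b), and 0 were lower, beside 5.26% of all tested genes higher and 9.45% lower.

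**Figure D1:**
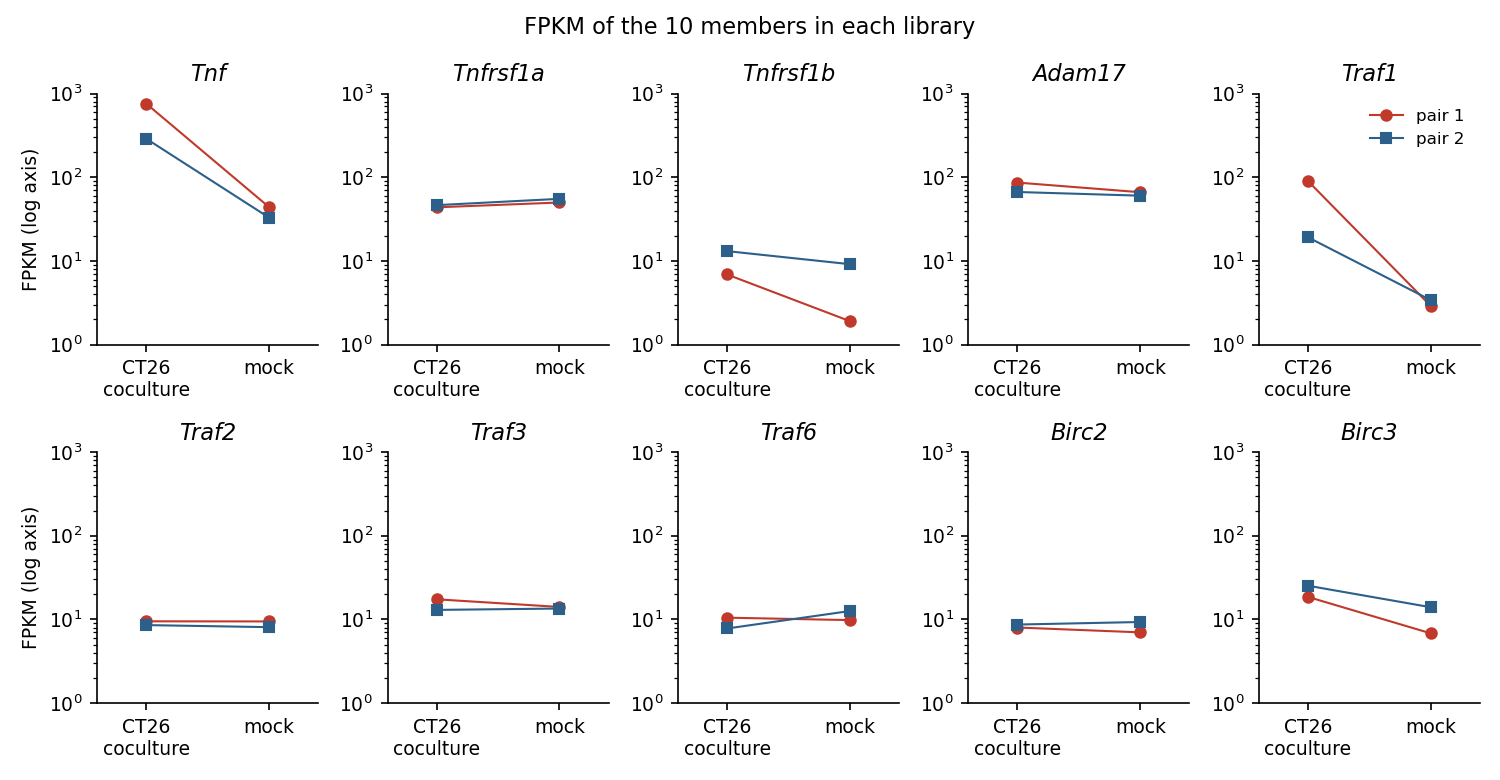
FPKM (log axis) of each of the 10 genes in the 4 libraries, with CT26 coculture left of mock and a line joining the libraries of a pair (circles pair 1, squares pair 2). Tnf and Traf1 have the steepest lines, with Tnf at 755 and 288 FPKM in coculture and 43.9 and 32.9 FPKM in mock.

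Tnf, the ligand, stood at 755 and 288 FPKM in coculture libraries 1 and 2, against 43.9 and 32.9 FPKM in mock libraries 1 and 2. Both coculture libraries lay far above both mock libraries, and coculture 1 was the highest of the 4. On the log2(FPKM + 1) scale, the difference between coculture and mock (coculture minus mock) was 4.07 in pair 1 and 3.09 in pair 2, and 3.58 ± 0.26 on average (limma's moderated SE, n = 2 pairs, unadjusted p = 7.96e-05, limma adjusted p = 0.0541). By size of difference Tnf was number 11 of the 10202 tested genes. Tnf ranked 39 and 136 by level among all genes in coculture, against 1923 and 2530 in mock. A call for Tnf turned on the processing: it passed with a pseudocount of 0.1, with a filter at 5 FPKM, and after each of 3 rescalings, where the limma adjusted p ran between 0.0109 and 0.0447 (0.0109 to 1 over all 13 alternatives). These are bulk cultures, in which more cells making a transcript and more transcript per cell cannot be told apart. A share from CT26 cells or an effect of the medium cannot be told apart from these either. Neither a step that parted the lines nor the coculture medium is given.

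Tnf lies between Ltb and Lta on chromosome 17, and the neighbours had lower levels. Ltb, which encodes lymphotoxin beta, stood at 12.6 and 21.5 FPKM in coculture and 3.27 and 11.6 FPKM in mock, a log2 difference of 1.26 ± 0.24 (limma adjusted p = 0.182). Lta, which encodes lymphotoxin alpha and was picked for its place after its values were seen, stood at 0.490 and 0.118 FPKM in coculture and 0.0942 and 0.0920 FPKM in mock, below the filter for testing.

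The differences of the 2 receptor genes were unlike in size and sign. Tnfrsf1a (TNFR1) stood at 43.7 and 46.4 FPKM in coculture, against 49.9 and 55.2 FPKM in mock. Both coculture libraries lay below both mock libraries, by a narrow margin, and the log2 difference was -0.22 ± 0.11 (-0.19 in pair 1 and -0.25 in pair 2, limma adjusted p = 0.435). Tnfrsf1b (TNFR2) stood at 6.89 and 13.1 FPKM in coculture, against 1.91 and 9.15 FPKM in mock. It was higher in coculture within each pair, but mock 2 lay above coculture 1, so the groups overlapped. Its log2 difference was 1.44 in pair 1 and 0.48 in pair 2, or 0.96 ± 0.28 on average (limma adjusted p = 0.273). Without mock 1, in a fit with no pair block, the Tnfrsf1b difference was 0.06, and without mock 2 it was 1.86.

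The TNFR1 transcript exceeded the TNFR2 transcript in every library, by 6.35 and 3.53 times in coculture and 26.1 and 6.03 times in mock. The ligand transcript stood at 17.3 and 6.22 times the Tnfrsf1a level in coculture and at 0.880 and 0.596 times in mock. By FPKM as deposited, the order of ligand and main receptor was thus turned round in both pairs.

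Adam17, the sheddase of TNF and of both its receptors, stood at 86.3 and 66.6 FPKM in coculture, against 66.2 and 60.2 FPKM in mock. Both coculture libraries were above both mock libraries, the lower of them by a small step. The log2 difference was 0.26 ± 0.12 (0.38 in pair 1 and 0.14 in pair 2, limma adjusted p = 0.407). The Tnf level was 8.75 and 4.33 times that of Adam17 in coculture, and 0.662 and 0.546 times in mock.

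Among the TRAF genes, Traf1 stood apart from Traf2, Traf3 and Traf6. Traf1, an adaptor without the RING domain that the other TRAF proteins here carry, stood at 90.3 and 19.2 FPKM in coculture, against 2.91 and 3.41 FPKM in mock. The mock libraries were close to each other, while coculture 1 was several times coculture 2, and the groups did not overlap. The log2 difference was 4.54 in pair 1 and 2.20 in pair 2, or 3.37 ± 0.57 on average (unadjusted p = 0.00301, limma adjusted p = 0.15). Traf1 was number 14 of the tested genes by size of difference, and it had the widest gap between its pairs and the widest error of the 10 members.

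Traf2, the adaptor that binds the cIAPs, stood at 9.50 and 8.56 FPKM in coculture, against 9.47 and 8.09 FPKM in mock. The 4 values lay close together and the groups overlapped, with a log2 difference of 0.04 ± 0.15 (limma adjusted p = 0.919) whose sign turned under some alternatives (-0.06 to 0.14). Traf3, an inhibitor of the alternative NF-kappaB route, stood at 17.4 and 13.0 FPKM in coculture, against 14.1 and 13.5 FPKM in mock. Its pairs went opposite ways (0.29 and -0.05) and the groups overlapped (0.12 ± 0.15, limma adjusted p = 0.748), with a range of -0.08 to 0.32 over the alternatives. Traf6, the adaptor of Toll-like and interleukin-1 receptors, stood at 10.5 and 7.80 FPKM in coculture, against 9.82 and 12.6 FPKM in mock. It was also split between the pairs, at 0.09 and -0.63, and gave -0.27 ± 0.22 (limma adjusted p = 0.606). By FPKM as deposited, Traf1 stood above Traf2 in coculture and below it in mock. The Traf1 level was 9.51 and 2.25 times that of Traf2 in coculture, and 0.308 and 0.421 times in mock.

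The cIAP genes Birc2 and Birc3 are neighbours on chromosome 9 and related in sequence, and the sources used here do not say how reads shared between them were counted. Birc3 (cIAP2) stood at 18.6 and 25.3 FPKM in coculture, against 6.83 and 14.0 FPKM in mock. Both coculture libraries were above both mock libraries, though mock 2 lay nearer to coculture 1 than to mock 1. The log2 difference of Birc3 was 1.33 in pair 1 and 0.81 in pair 2, or 1.07 ± 0.18 on average (unadjusted p = 0.00280, limma adjusted p = 0.148). In fits with no pair block, the Birc3 difference was 0.60 without mock 1 (limma unadjusted p = 0.156) and 1.54 without mock 2. Birc2 (cIAP1) stood at 8.01 and 8.69 FPKM in coculture, against 7.01 and 9.32 FPKM in mock. Its groups overlapped, its pairs differed in sign (0.17 and -0.09), and its mean difference was 0.04 ± 0.16 (limma adjusted p = 0.923; -0.14 to 0.22 over the alternatives). The Birc3 level was 2.33 and 2.91 times that of Birc2 in coculture, and 0.974 and 1.5 times in mock.

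**Figure D2:**
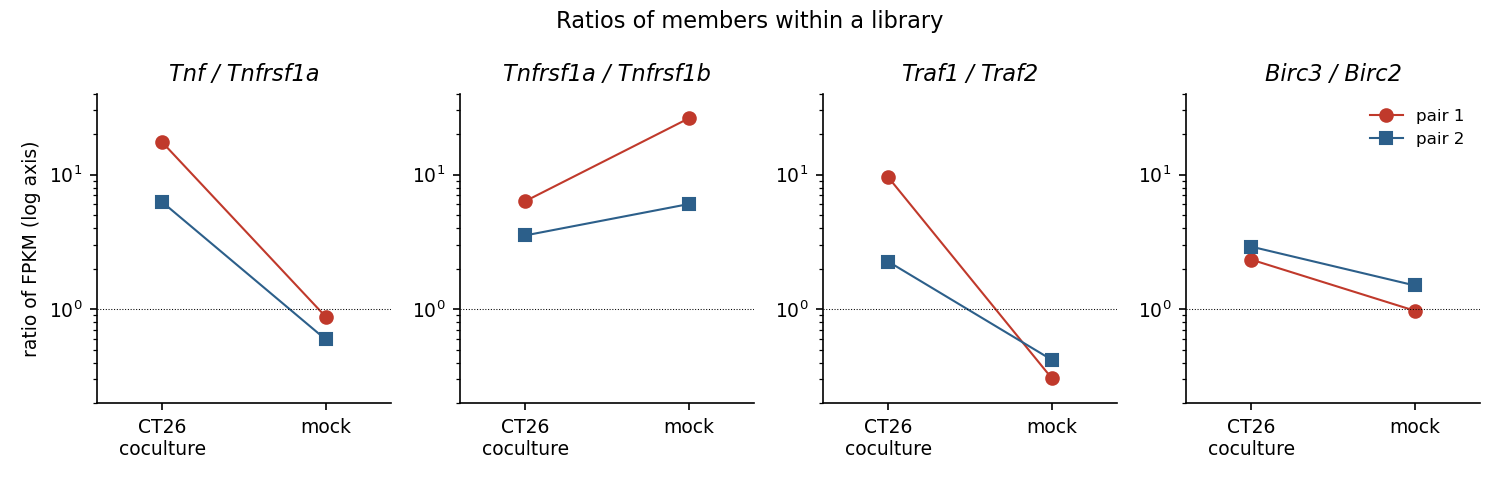
Ratio of 2 members' FPKM within each library (log axis, dotted line at equal levels), CT26 coculture left of mock, circles pair 1 and squares pair 2. Traf1 / Traf2 lies at 9.51 and 2.25 in coculture and at 0.308 and 0.421 in mock.

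On the log2(FPKM + 1) scale, 2 of the 10 members (Tnf and Traf1) were at least 2-fold higher in both pairs and 0 were lower. The shares over all tested genes were 1.02% and 0.353%. At a bound of 1.5-fold, Birc3 was also higher in both pairs and 0 members were lower, beside 2.4% and 2.17% of all tested genes. In 4 members (Tnf, Adam17, Traf1 and Birc3) both coculture libraries lay above both mock libraries, as in 10.3% of all tested genes. Within pairs, 6 members were higher in both (Tnf, Tnfrsf1b, Adam17, Traf1, Traf2 and Birc3), though Traf2 by only 0 (rounded) and 0.07. Tnfrsf1a was lower in both, and Traf3, Traf6 and Birc2 changed sign. Over all 10202 tested genes, 2190 were higher in both pairs, 4303 lower in both and 3650 changed sign. The median difference over the members was 0.189 (0.332 in pair 1 and 0.108 in pair 2), and over all tested genes -0.072 (-0.089 and -0.056). The differences in pair 1 exceeded those in pair 2 for each of Tnf, Traf1, Tnfrsf1b and Birc3.

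**Figure D3:**
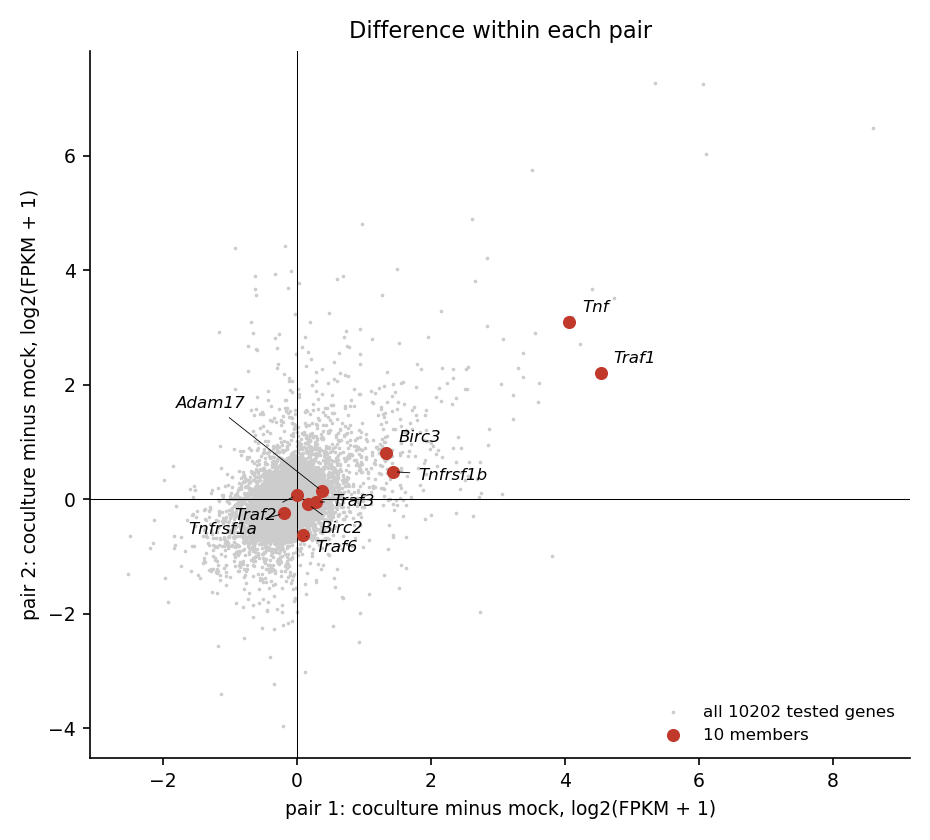
Coculture minus mock difference in log2(FPKM + 1) in pair 1 (x axis) and pair 2 (y axis) for the 10 members (red, named) over all 10202 tested genes (grey). Tnf (4.07 and 3.09) and Traf1 (4.54 and 2.20) lie at the upper right, Birc3 and Tnfrsf1b between them and the other 6, which lie near the origin.

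By mean level in coculture, Tnf came first (522 ± 330 FPKM, SD, n = 2), above Adam17 (76.4 ± 13.9 FPKM) in both libraries. Adam17, Traf1 and Tnfrsf1a followed, and neighbours in that stretch did not differ beyond their spread, since Traf1 ranged so widely. Birc3 (22.0 ± 4.74 FPKM) came next, below Tnfrsf1a and above Traf3 in both libraries, and from Traf3 down through Tnfrsf1b, Traf6, Traf2 and Birc2 neighbours overlapped. In mock the order was Adam17 (63.2 ± 4.24 FPKM), Tnfrsf1a (52.5 ± 3.75 FPKM), Tnf (38.4 ± 7.78 FPKM) and Traf3 (13.8 ± 0.424 FPKM), with no overlap between these neighbours or with Traf6 below them. From Traf6 on, through Birc3, Traf2, Birc2 and Tnfrsf1b to Traf1 (3.16 ± 0.354 FPKM) at the bottom, neighbours overlapped.

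Among tested genes outside the lists with a mean of at least 2 FPKM, the 5 whose pair of differences lay nearest to that of Tnf were Dusp5, Phlda1, Nfkbiz, Ier3 and Ccl4. Dusp5, a MAP kinase phosphatase gene, was nearest at a Euclidean distance of 0.10 log2 units, with 86.6 and 27.7 FPKM in coculture and 4.06 and 2.17 FPKM in mock. Nearest to Traf1 were Phlda1, Lif, Errfi1, Dusp5 and Pim1, at distances of 0.60 to 1.08. Lif, the leukaemia inhibitory factor gene, had 36.3 and 4.41 FPKM in coculture and 0.0645 FPKM and a listed 0 in mock. Its larger difference in pair 1 than in pair 2, as for Traf1, follows from how it was picked. Each distance rests on 2 values per gene, from 4 libraries.

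The wider pathway was described with 104 further genes in 8 lists by role, of which 76 were tested. None passed limma's test over all genes. Before adjustment, p was under 0.05 for 15 of the 76 that were higher and 7 that were lower, beside 5.26% and 9.45% of all tested genes. On the log2(FPKM + 1) scale, 6 were at least 2-fold higher in both pairs (Ikbke, Tnip1, Rhbdf2, Irak2, Cd40 and Fas). By the same bound 1 was lower (Tifa), and the shares over all tested genes were 1.02% and 0.353%. With 0.1 added in place of 1, Tnfrsf9 (higher) and Tnfsf12 (lower) also met it, giving 7 higher and 2 lower. Over all tested genes, 145 were higher and 75 lower at that setting. The median difference of the 76 was -0.02, beside -0.07 over all tested genes, and 25 of them differed in sign between the pairs.

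In the receptor complex and its ubiquitin ligases, 0 of 11 genes passed in either direction. Traf5, a close relative of Traf2, stood at 3.08 and 4.30 FPKM in coculture and 2.11 and 2.58 FPKM in mock (0.48 ± 0.18). Xiap, an inhibitor of caspases, differed by 0.34 ± 0.12, and Tradd, the adaptor that docks on TNFR1, by 0.28 ± 0.15. Ube2l3, a ubiquitin-conjugating enzyme gene, was lower at -0.31 ± 0.16.

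Of 11 downstream kinase genes and partners, 0 passed in either direction, and Ikbke, an IKK-related kinase gene, was the farthest from 0. It stood at 24.9 and 21.4 FPKM in coculture and 1.48 and 4.12 FPKM in mock, with no overlap (2.76 ± 0.33, limma adjusted p = 0.0964). Map3k5 (-0.51 ± 0.17), Tab1 (-0.44 ± 0.14) and Map3k14 (-0.39 ± 0.15) were lower in both pairs. Map3k14 encodes the kinase of the alternative NF-kappaB route, which TRAF3 together with TRAF2 and the cIAPs holds down, and Tab1 a partner of the TAK1 kinase.

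Of 10 deubiquitinases and inhibitors of the pathway, 0 passed in either direction. Tnip1, a ubiquitin-binding partner of A20, stood at 154 and 75.0 FPKM in coculture and 33.8 and 22.2 FPKM in mock (1.93 ± 0.15, limma adjusted p = 0.0544), and passed under the same 5 alternatives as Tnf. Tnfaip3, which encodes A20, stood at 10.6 and 6.65 FPKM in coculture and 0.964 and 4.75 FPKM in mock, with 2.56 in pair 1 and 0.41 in pair 2 (1.49 ± 0.54, limma adjusted p = 0.330). The deubiquitinase genes Cyld (-0.21 ± 0.15) and Usp21 (-0.34 ± 0.13) had small lower values.

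In the death branch, 0 of 9 genes passed in either direction. Cflar, which encodes the caspase-8 inhibitor c-FLIP, stood at 24.9 and 21.9 FPKM in coculture and 12.2 and 11.6 FPKM in mock (0.91 ± 0.13, limma adjusted p = 0.123), with nearly equal differences in the pairs. Fadd, the adaptor that recruits caspase-8, stood at 2.96 and 4.15 FPKM in coculture and 4.67 and 7.54 FPKM in mock (-0.62 ± 0.17, limma adjusted p = 0.258). Casp8 itself had differences of 0.09 (pair 1) and 0.88 (pair 2). Madd, a death-domain protein gene, differed by -0.50 ± 0.15. Mlkl, the effector of necroptosis, picked after its values were seen, went opposite ways, at 9.70 and 29.7 FPKM in coculture and 10.3 and 6.34 FPKM in mock.

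Among 6 tested regulators and relatives of ADAM17, 0 passed in either direction. Rhbdf2, which encodes iRhom2, the partner that carries ADAM17 to the surface in macrophages, stood at 58.2 and 24.4 FPKM in coculture and 14.6 and 11.5 FPKM in mock, with no overlap (1.47 ± 0.25, limma adjusted p = 0.147). Furin, the protease that removes the ADAM17 prodomain, stood at 55.5 and 63.6 FPKM in coculture and 39.7 and 27.3 FPKM in mock (0.83 ± 0.20). Adam8, another metalloprotease gene, differed by 0.09 in pair 1 and 1.14 in pair 2. Frmd8, which encodes a protein that stabilises iRhoms, differed by -0.34 ± 0.16, and Timp3, an ADAM17 inhibitor gene, did not exceed 0.0658 FPKM in any library.

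Of 13 other TRAF genes and TRAF partners, 0 passed in either direction. Irak2, a kinase-like partner of TRAF6, stood at 31.8 and 32.5 FPKM in coculture and 10.2 and 12.9 FPKM in mock (1.41 ± 0.14, limma adjusted p = 0.0702). Irak3, an inhibitor of the same complex, differed by 0.55 ± 0.16. Tifa, a TRAF-interacting adaptor, stood at 0.836 and 6.57 FPKM in coculture and 3.78 and 15.0 FPKM in mock (-1.23 ± 0.18, limma adjusted p = 0.125). It was lower within both pairs, although its levels in the pairs were far apart. The related Tifab differed by -0.81 ± 0.28.

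Of the other TNF superfamily, 4 of 17 ligand genes and 12 of 26 receptor genes reached the filter, and 0 passed in either direction. Ltb was the ligand gene with the largest difference. Tnfsf12, which encodes TWEAK, stood at 0.364 and 0.386 FPKM in coculture and 1.11 and 1.20 FPKM in mock (-0.65 ± 0.21), and Tnfsf13b, which encodes BAFF, differed by -0.04 ± 0.19. Fas, a death receptor gene, stood at 10 and 2.50 FPKM in coculture and 0.181 and 0.317 FPKM in mock (2.32 ± 0.47, limma adjusted p = 0.188). Cd40, a receptor that signals through TRAF proteins, stood at 4.18 and 2.48 FPKM in coculture and 0.365 and 0.498 FPKM in mock (1.57 ± 0.26, limma adjusted p = 0.147). Neither Fas nor Cd40 overlapped between the groups. Tnfrsf9, which encodes 4-1BB, stood at 0.721 and 17.6 FPKM in coculture and 0.0586 and 1.60 FPKM in mock, and Tnfrsf12a, the TWEAK receptor gene, at 62.4 and 15.7 FPKM in coculture and 27.1 and 9.92 FPKM in mock. Both were higher in coculture within each pair while their levels in the pairs lay far apart.

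**Figure D4:**
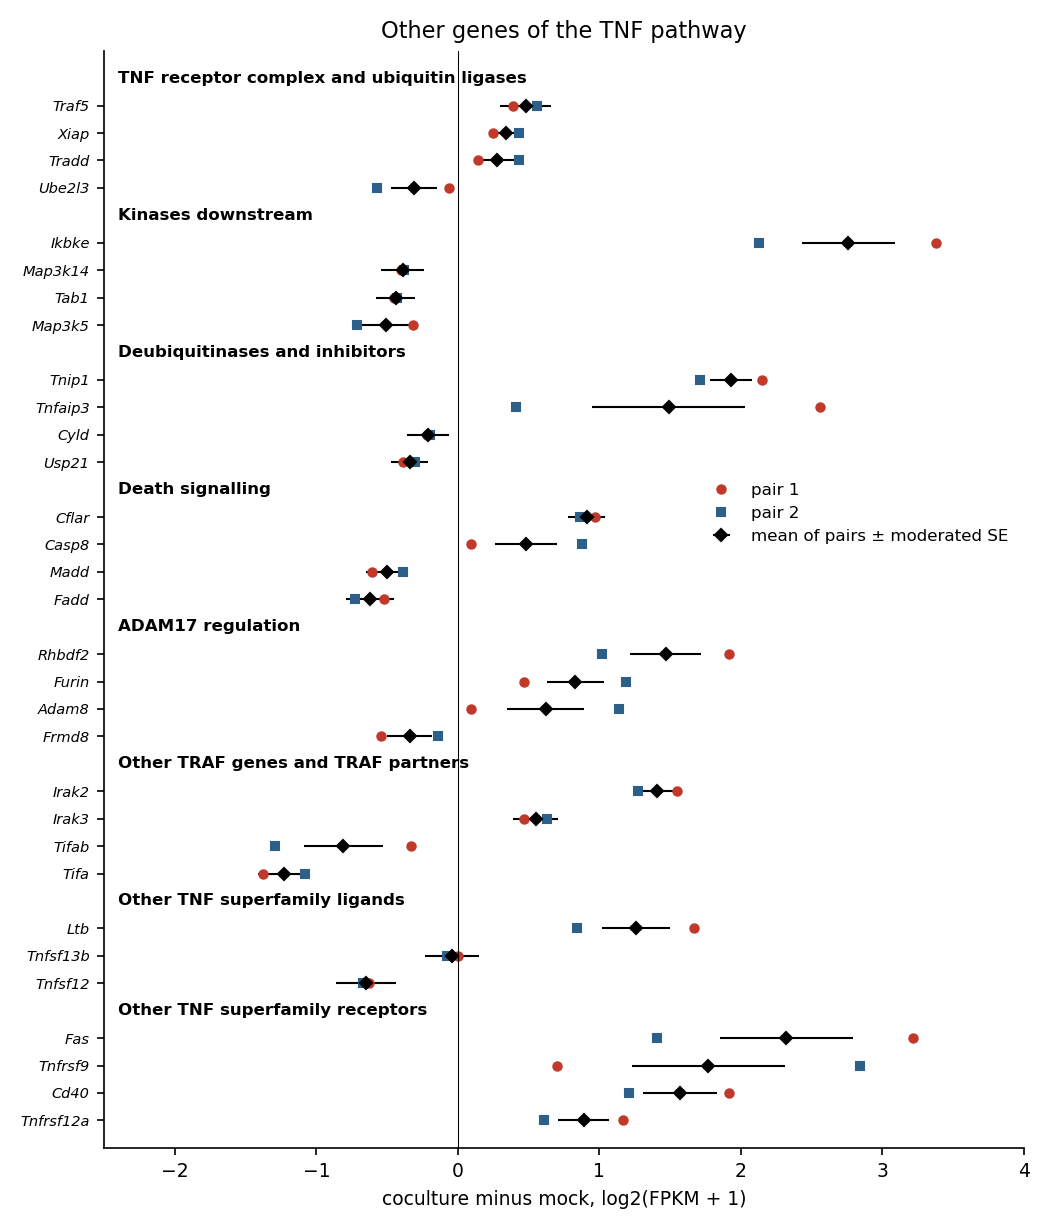
Coculture minus mock difference in log2(FPKM + 1) of the genes named from each of the 8 role lists, in pair 1 (circles), in pair 2 (squares) and on average (diamonds, bars are limma's moderated SE). Ikbke (2.76), Fas (2.32) and Tnip1 (1.93) lie farthest to the right, and Tifa (-1.23) farthest to the left.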

How the data were processed

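Messenger RNA of 4 RAW264.7 libraries was measured as FPKM, which the authors deposited in 2 tables, each with 1 coculture and 1 mock library. Trim Galore, Subread with featureCounts, and the human build hg38 are named per the submitters' processing notes, although the symbols are mouse symbols. Versions, annotation and gene lengths were not given in the sources used here.

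Names found once in both tables (22554) were used, leaving out 23 unnamed and 287 repeated-name rows of the first table (at most 1.07% of a library's FPKM). The 10202 genes that reached 1 FPKM in 2 or more libraries were tested on log2(FPKM + 1) with limma 3.58.1 in R 4.3.3 (trended prior, two-sided, Benjamini-Hochberg over all tested genes), and the pair was a block, since each table may carry its own scaling. This leaves 1 residual degree of freedom beside a prior of 3.43. Libraries of a pair deviated together (correlation across genes 0.76). The labels do not say that replicates are separate cultures, so the p-values speak only for these 4 libraries. The spread behind them is the disagreement of the 2 pairs, moderated by a prior over all tested genes, and may be technical.

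The members and lists were chosen with earlier results of these data known. Genes were named by rule: all members, and from each role list up to 4 tested genes with the largest difference of 1 sign in both pairs. Of the role-list genes, Lta, Mlkl and Timp3 were named outside this rule. Depth was estimated from the value of 1 read in low genes, with GENCODE M21 exon lengths, and was sought only within a preset range. Alternatives covered the pseudocount, filter, scaling, prior, block, fold bound and each library left out. Promoter sequences came from RefSeq, matched by symbol for 10 of 10 members.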

Additional observations from a re-analysis of the deposited data

How the results depend on the processing

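Over the 13 alternatives to the fit, the differences of Tnf, Traf1, Birc3, Tnfrsf1b, Adam17, Tnfrsf1a and Traf6 kept their sign, while those of Traf2, Traf3 and Birc2, all near 0, did not. Tnf ran from 2.89 to 4.28 and Traf1 from 2.28 to 4.46, both ends with a library left out. Adam17 ran from 0.07 to 0.44, Traf6 from -0.46 to -0.08 and Tnfrsf1a from -0.29 to -0.15.

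Among the members, 0 were called as reported above, and 1 (Tnf) was called with a pseudocount of 0.1, at least 5 FPKM, a common total, quantile normalization or median centring. Over the other pathway genes the count was 0, against 1 (Tnip1) with a pseudocount of 0.1, at least 5 FPKM or a common total, 2 after quantile normalization and 3 after median centring. Over all genes it was 13, against 22 with a pseudocount of 0.1, 26 with at least 5 FPKM or a common total, 103 after median centring, 46 after quantile normalization, 1 with no trended prior, and 0 with no filter on low values. Without the replicate block it was 1 over all genes and 0 members, with 3 members higher and 0 lower at p under 0.05 before adjustment, beside 2.13% and 2.37% of all genes. Without any single library, in limma fits with no block that cross the tables, 0 genes were called, with 176 to 523 at an unadjusted p under 0.05. A bound of 1.5-fold in both pairs added Birc3 to Tnf and Traf1, and gave 12 other pathway genes (10 higher and 2 lower) in place of 7, beside 2.4% of all genes higher and 2.17% lower; the cause of these moves was not tested. Depth gave 112 or more estimated reads behind each member in each library, and the spread was estimated from 2 pairs.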
